A study of Homo sapiens with 2 samples.

Results

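Integrins, laminins and focal adhesion genes were followed in 2 RNA libraries of L3.6 cells, 1 of the control and 1 of the ESE1 knockdown. The set was a fixed list of 41 gene names, of which all 41 were found among the 60612 genes of each library and 38 reached at least 1 FPKM (fragments scaled to transcript length and sequencing depth) in at least 1 library. L3.6 is an established human PDAC line with epithelial character. ESE1, the product of *ELF3*, is an epithelial ETS-family transcription factor. The knockdown cells (shESE1) were described as a pool of stable, puromycin-selected cells carrying a lentiviral pLKO vector with an shRNA against ESE1, and the control cells (shCtrl) as carrying a scramble shRNA in the same vector, although the labels call the control untreated. Which shRNA against ESE1 gave the library is not given in the sources used here. With 1 library per group there is no replicate check, no test between groups was possible, and every value below describes these 2 libraries.

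Epithelial cells hold on to the basement membrane through integrins, receptors built of 1 alpha and 1 beta subunit. Laminins, trimers of an alpha, a beta and a gamma chain, are the main ligands on the basement membrane side. In hemidesmosomes the α6β4 integrin is tied to keratin filaments through plectin and dystonin, and in focal adhesions β1, β3 or β5 integrins are tied to actin through talin, kindlins, vinculin and their partners. In pancreatic cancer these contacts are known for their part in attachment, migration and survival signaling.

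The shCtrl library held 56853971 counts and the shESE1 library 60786475, and the targeted gene *ELF3* was measured at 20.4 and 10.7 FPKM. Mitochondrially encoded RNA made up 12.4% of the shCtrl counts and 3.79% of the shESE1 counts, a share that enters the scaling of every other gene and whose part in the differences below was not tested. All 8 markers of pancreatic ductal epithelium were measured, with summed levels of 1513 and 1835 FPKM, to which the keratin genes gave the most. Of the 8, 5 were higher and 3 lower in shESE1, with *CDH1*, the E-cadherin gene, at 16.3 and 6.95 FPKM (−1.13 in log2), *MUC1* at 5.41 and 2.48 (−0.88) and *EPCAM* at 117 and 109.7 (−0.095). Of markers of other cells, 2 of 9 for fibroblasts (summed 9.30 and 3.04 FPKM), 1 of 6 for endothelium (1.94 and 1.32), 1 of 7 for immune cells (3.84 and 8.03) and 0 of 7 for acinar and endocrine cells reached 1 FPKM. *COL1A2*, *DCN* and *FAP*, *PTPRC*, *CD3E*, *CD14* and *LYZ*, and all 7 acinar and endocrine markers had 0 counts in both libraries, which allows up to 0.0528 CPM (counts scaled to a common total) in shCtrl and 0.0494 CPM in shESE1, the floor of 3 counts. The single immune marker measured, *CD68*, shares 89.9% of its sequence with other genes, most often *AC016876.2*. Whether cells other than L3.6 cells enter any difference was not tested, and fewer cells with a transcript and less of it per cell cannot be told apart in these bulk libraries.

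Most adhesion genes lay close together in the 2 libraries, and the single gene past 2-fold on the reported scale was a laminin chain. Of the 38 measured genes, 23 were lower and 15 higher in shESE1, and of all 12520 genes measured 6069 were lower and 6451 higher. The median log2 change was −0.051, beside 0.019 for all genes measured. The change is log2((shESE1 FPKM + 1)/(shCtrl FPKM + 1)), which understates differences at low levels. At 2-fold or more, 1 adhesion gene was lower (*LAMA5*) and 0 were higher, against 3.26% of all measured genes lower and 3.14% higher. At 1.5-fold, 7 were lower and 4 higher, while 11.5% and 12.2% of all measured genes were. The lower genes were *LAMA5*, *LAMB1*, *LAMB2*, *PLEC*, *DST*, *PTK2* and *CD44*, and the higher ones *LAMA3*, *FERMT1*, *SDC1* and *SDC4*. Taken without the pseudocount, 4 genes were at least 2-fold lower (*LAMA5*, *DST*, *ITGB8* and *HSPG2*) and 0 higher, against 8.48% and 5.48% of all measured genes, where a gene at 0 in 1 library counts as past 2-fold. The median size of the change, regardless of direction, was 0.35 in the adhesion genes and 0.33 in all measured genes.

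These counts depended on the scaling. Values as TPM, a rescaling of FPKM to an equal sum in each library, moved the median of all measured genes to 0.27 and gave 0 adhesion genes lower and 4 higher at 2-fold, with 499 of all measured genes lower and 1147 higher instead of 408 and 393. When the totals were taken without mitochondrial genes the median of all genes was −0.09, the adhesion genes gave 1 lower and 0 higher, and all genes gave 560 and 293. The direction of 13 genes near 0 turned in at least 1 of the 9 settings compared for single genes, namely *ITGA3*, *ITGA6*, *ITGB1*, *ITGB6*, *LAMB3*, *COL4A1*, *COL4A2*, *AGRN*, *CD151*, *TLN1*, *PXN*, *FERMT2* and *TNS4*. In the plot of levels by gene, each pair of points is 1 gene in the 2 libraries.

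**Figure D1:**
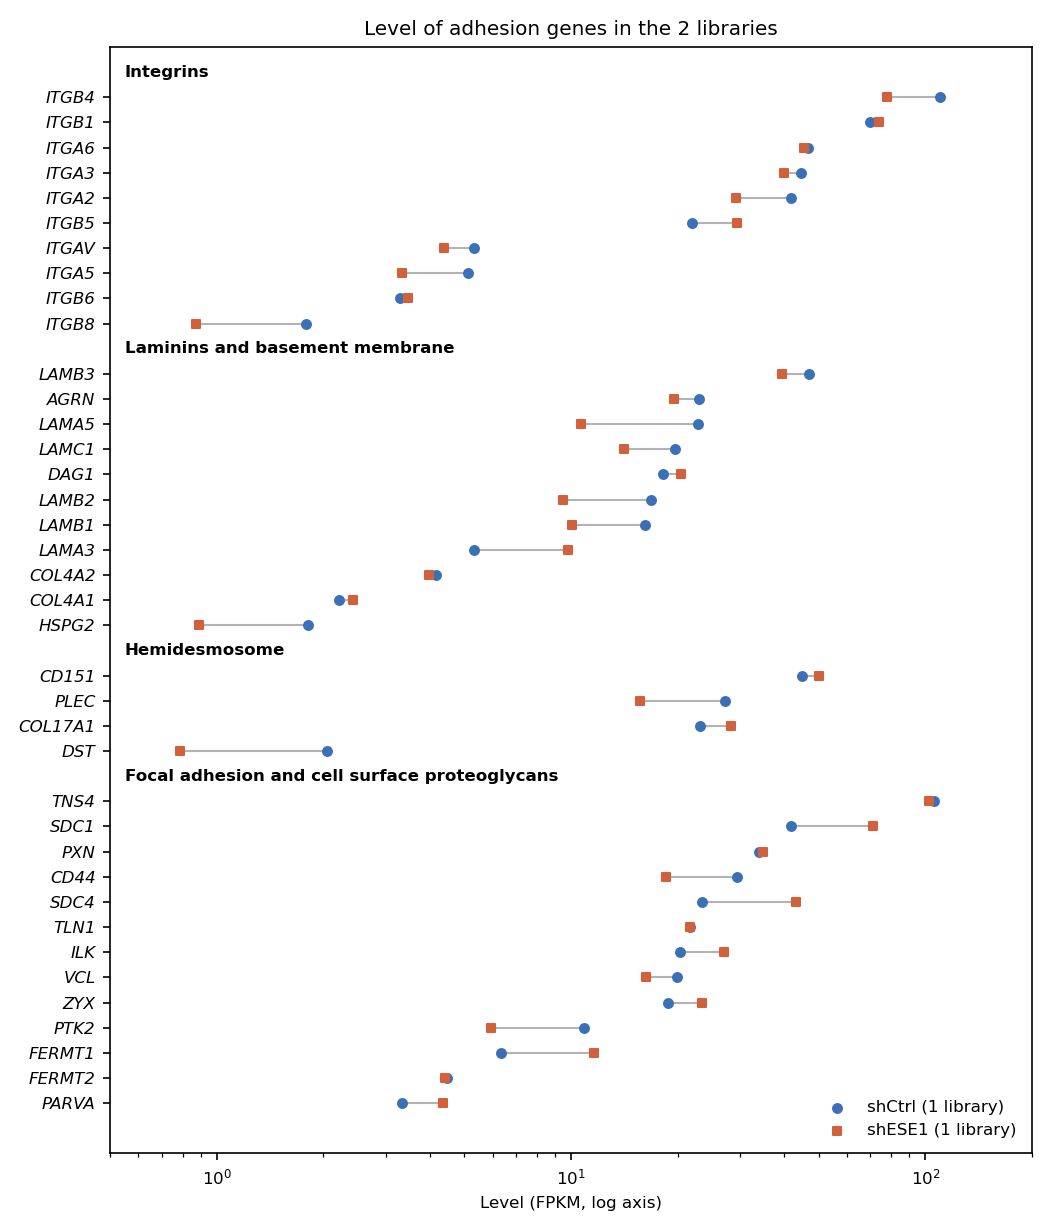
Level in FPKM on a log axis of the 38 adhesion genes measured at 1 FPKM or more, in the shCtrl library (circles) and the shESE1 library (squares), with 1 library per group and therefore no error bars. *ITGB4*, *TNS4* and *ITGB1* stand highest in shCtrl, and the pairs of points are farthest apart for *DST*, *LAMA5*, *ITGB8* and *HSPG2*.

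Integrin transcripts were dominated by the subunits of α6β4 and of the β1 integrins in both libraries. *ITGB4*, the beta subunit of the hemidesmosome, had 110 FPKM in shCtrl and 78.0 in shESE1, a log2 change of −0.49. *ITGA6*, its only alpha partner, was at 46.6 and 45.5 FPKM. The level of *ITGB4* was therefore 2.37 times that of *ITGA6* in shCtrl and 1.71 times in shESE1. *ITGB1*, which pairs with many alpha subunits, had 69.8 FPKM in shCtrl and 74.1 FPKM in shESE1. The order at the top was thus the same in both libraries, with *ITGB4* first and *ITGB1* second. *ITGA3*, the alpha subunit of a laminin receptor, was at 44.6 and 39.9 FPKM. *ITGA2*, of a collagen receptor, had 41.8 FPKM in shCtrl and 29.2 FPKM in shESE1 (−0.50 in log2, 95% counting interval of the ratio without pseudocount −0.55 to −0.49).

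The receptors for RGD-containing ligands such as fibronectin and vitronectin were expressed at lower levels. *ITGB5*, the partner of αv in a vitronectin receptor, had the largest upward difference of the listed integrin genes, at 22.0 FPKM in shCtrl and 29.5 in shESE1. Its log2 change was 0.41, with a counting interval of 0.39 to 0.46 without the pseudocount. *ITGAV*, the alpha partner of β5, β6 and β8, was at 5.33 and 4.37 FPKM, so the beta subunit moved the other way from its alpha subunit. *ITGA5*, of the fibronectin receptor α5β1, had 5.13 FPKM in shCtrl and 3.34 FPKM in shESE1. *ITGB6*, an epithelial receptor that activates latent TGF-β, was at 3.29 and 3.45 FPKM from 1284 and 1468 counts, and its counting interval of −0.039 to 0.18 held 0. *ITGB8*, the other beta subunit with that role, had 1.79 FPKM in shCtrl and 0.872 FPKM in shESE1, from 1825 and 971 counts. That is 2.05-fold lower without a pseudocount (interval −1.15 to −0.92 in log2) and −0.57 with it. A measured gene on the opposite strand, *AC004130*, overlaps *ITGB8* and held counts equal to 12.2% of those of *ITGB8* in shCtrl and 8.44% in shESE1.

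On the scale with the pseudocount, 0 of 10 measured integrin genes passed 1.5-fold lower and 0 higher, against 11.5% and 12.2% of all measured genes, and their median was −0.20. Without it, *ITGA5* was 1.54-fold and *ITGB8* 2.05-fold lower. *ITGB3*, the beta subunit of the vitronectin receptor αvβ3, lay below the filter of 1 FPKM. It had 0.778 FPKM in shCtrl and 0.0349 FPKM in shESE1, from 332 and 17 counts, which is 22.3-fold lower with a counting interval of −5.27 to −3.78 in log2. *ITGB3* shares 55.4% of its sequence with other genes, most often *AC068234.1*. The 2 gene rows of that name, taken without its suffix, together held only 12 counts in shCtrl and 0 in shESE1. Just inside the filter stood *ITGB8* and *HSPG2*, and just outside it *ITGB3*, *NID1* and *COL7A1*. Of 15 other integrin subunits, 2 were measured. *ITGA1*, of a collagen receptor, was at 1.80 and 1.41 FPKM, and *ITGAE*, the alpha subunit that pairs with β7 to bind E-cadherin, at 1.52 and 2.51, whereas 13 stayed below 1 FPKM in both libraries. Both were named after their values were seen.

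**Figure D2:**
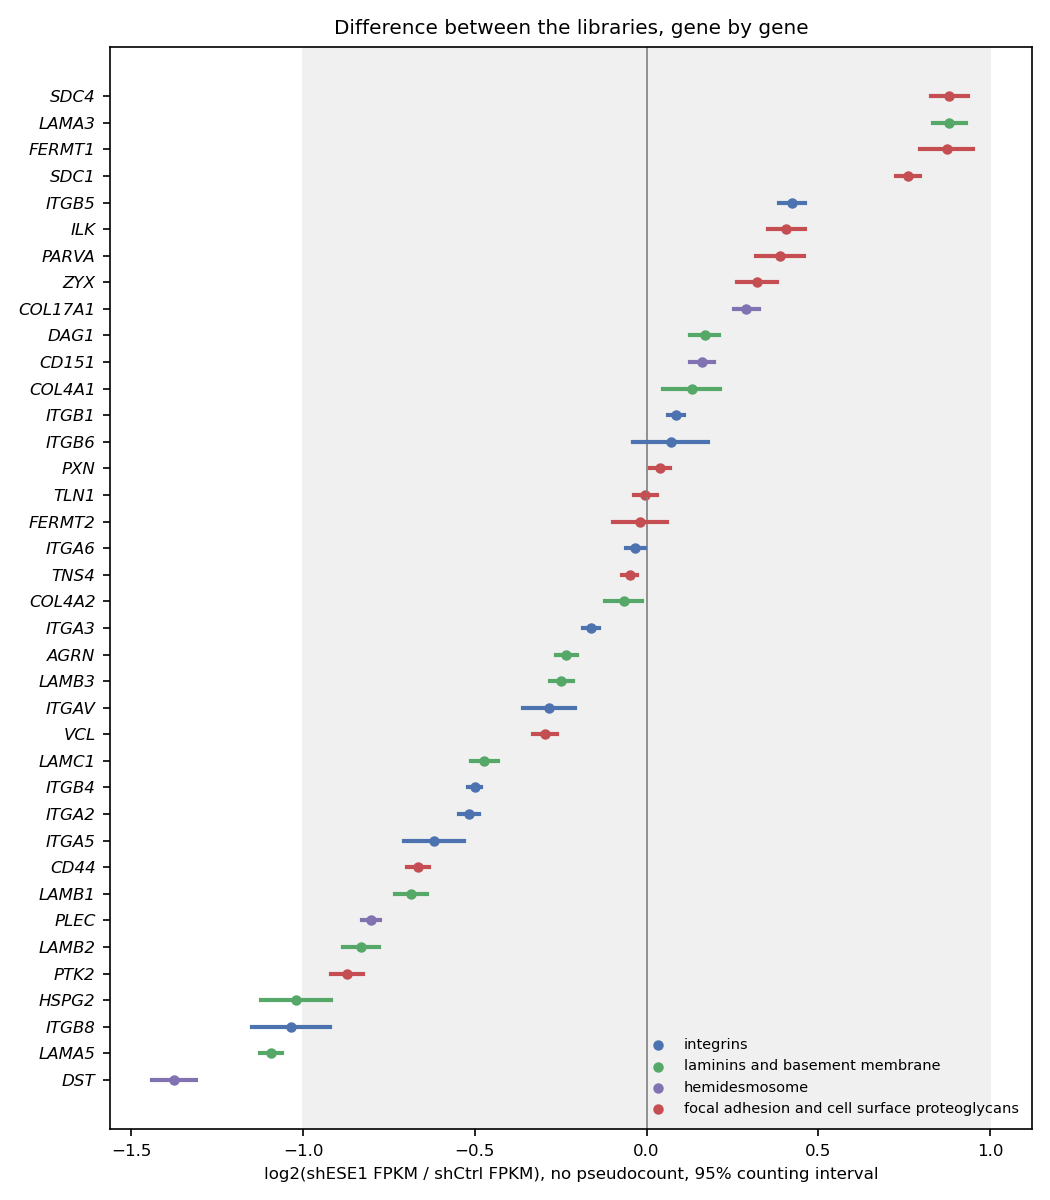
log2 ratio of shESE1 to shCtrl FPKM without a pseudocount for the 38 measured adhesion genes, colored by group, with the 95% exact counting interval as a bar and the range within 2-fold in grey. *DST*, *LAMA5*, *ITGB8* and *HSPG2* lie below −1, no gene lies above 1, and the bars cover counting error only, since each group has 1 library.

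Laminin chains lay on both sides. Chains of laminin-511 and laminin-521 were lower in shESE1, whereas the alpha chain *LAMA3* was higher. *LAMA5* (ENSG00000130702, chromosome 20, 62307955 to 62351989 on the minus strand of GRCh38) encodes the alpha chain of laminin-511 and laminin-521. It had 22.8 FPKM in shCtrl and 10.7 FPKM in shESE1, from 21948 and 11217 counts, and was 2.13-fold lower with a log2 change of −1.03 (counting interval without pseudocount −1.13 to −1.06). The beta chains *LAMB1* and *LAMB2* were at 16.2 and 16.8 FPKM in shCtrl and at 10.1 and 9.46 in shESE1, log2 changes of −0.64 and −0.77. *LAMC1*, their gamma chain, was at 19.6 and 14.1 FPKM (−0.45). All 4 chains were thus lower, and their summed level was 75.5 FPKM in shCtrl and 44.4 in shESE1.

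Of laminin-332, the ligand of hemidesmosomes, the alpha and beta chains lay on opposite sides of 0. *LAMA3* (ENSG00000053747, chromosome 18, 23689443 to 23956222 on the plus strand), its alpha chain, had 5.32 FPKM in shCtrl and 9.79 FPKM in shESE1, a log2 change of 0.77 with a counting interval of 0.83 to 0.93 without the pseudocount. *LAMB3*, the beta chain, was at 46.8 and 39.4 FPKM (−0.24). The level of *LAMA3* was 0.113 times that of *LAMB3* in shCtrl and 0.248 times in shESE1. *LAMA5* stood at 4.29 times the level of *LAMA3* in shCtrl and at 1.09 times in shESE1.

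**Figure D3:**
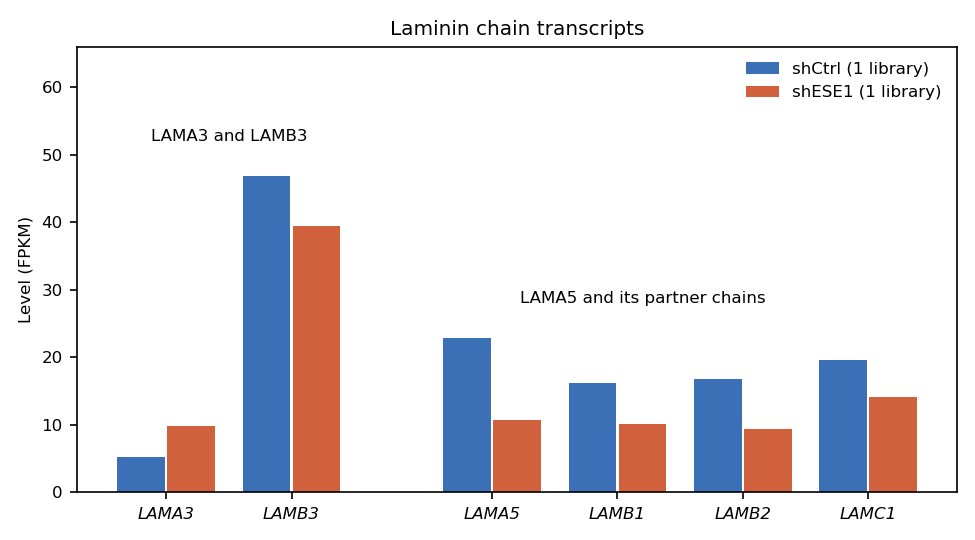
Level in FPKM of 6 laminin chain genes in the shCtrl and shESE1 libraries, with 1 library per bar and no error bars. *LAMA5* and its 3 partner chains are lower in shESE1, *LAMB3* is lower by a smaller fold, and *LAMA3* is higher, at 9.79 FPKM against 5.32.

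The directions of *LAMA5*, *LAMB1*, *LAMB2*, *LAMC1* and *LAMA3* were the same under all 8 other scalings, pseudocounts and trend corrections run for single genes, whereas *LAMB3* was at 0.016 as TPM. The log2 change of *LAMA5* lay between −1.16 and −0.81 and passed 2-fold under the reported setting and 6 of the others. The last 908 bases of *LAMA5* overlap *ADRM1*, which lies on the opposite strand, codes for a proteasome receptor and had 65.6 FPKM in shCtrl and 117 FPKM in shESE1. The libraries mark the strand, but whether the counting used it is not given in the sources used here, and the part of this overlap in the counts of *LAMA5* was not tested. *LAMA5* shares no sequence words with other genes. Of the other genes given here, *CD151* overlaps *POLR2L*, *ILK* overlaps *TAF10* and *ZYX* overlaps *EPHA1* on opposite strands, so their counts are less certain. *ITGB1* shares 13.8% of its sequence with other genes, most often *AC022149.1*. The 2 gene rows of that name, taken without its suffix, together held 1389 counts in shCtrl and 1895 in shESE1. *ITGB1* itself had 28231 and 32668. *ITGB6* shares 17.0% with other genes, most often *AC092153.1*, whose row held 5 and 3 counts.

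Other basement membrane genes were mixed too. The type IV collagen genes *COL4A1* and *COL4A2*, which form the network of the basement membrane and overlap at their starts on opposite strands of chromosome 13, were at 2.21 and 4.15 FPKM in shCtrl and at 2.42 and 3.96 in shESE1. *AGRN*, which encodes the heparan sulfate proteoglycan agrin, was at 22.9 and 19.5 FPKM. *HSPG2*, which encodes perlecan, had 1.81 FPKM in shCtrl and 0.890 FPKM in shESE1 (2207 and 1187 counts), 2.03-fold lower without a pseudocount and −0.57 with it. *DAG1*, the gene of the laminin receptor dystroglycan, was at 18.2 and 20.5 FPKM. *NID1*, which links laminin to collagen IV, had 238 and 116 counts, and *COL7A1*, the anchoring fibril collagen, 282 and 272, both under 1 FPKM. Of the 11 measured genes of this group 8 were lower and 3 higher, 1 and 0 at 2-fold, and the median was −0.24. Of all 12520 measured genes 6069 were lower and 6451 higher, 3.26% and 3.14% at 2-fold, and the median was 0.019.

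Of 21 further laminin and basement membrane genes, 7 were measured, with a median of −0.25, beside 0.019 for all measured genes. Of the 7, 2 were lower and 1 higher at 2-fold, against 3.26% and 3.14% of all measured genes. *SMOC1*, which encodes a calcium-binding basement membrane protein, had 53.1 FPKM in shCtrl and 23.5 FPKM in shESE1 (−1.14). *COL4A5*, an alternative collagen IV chain, was at 6.94 and 2.88 FPKM (−1.04).

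Short stretches of upstream sequence are shown for the adhesion genes whose promoter window holds an extended ETS-type core, since ESE1 is an ETS factor, and for *LAMA3*, whose window holds a pair of AP-1-type sites. Of the listed genes *LAMB3*, which lay below 0 (−0.24), also has 1 such site in a window, not shown. The windows are the 250 bases before each start site in RefSeq on GRCh38.p14, found for 31 of the 41 genes with 43 start sites. The letters GGAA, the core shared by ETS factors, searched on both strands, occurred in 93.0% of these 43 windows and in 92.7% of all 35116 promoter windows. CCGGAA, which contains GGAA, occurred in 18.6% and in 14.5% of all windows, and TGANTCA in 4.65% and in 6.57%. The lines below run 5′ to 3′ on the strand of the gene, with CCGGAA or its reverse complement in capitals.

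LAMA5, chr20:62367486-62367515, minus strand: agcaggtgccccTTCCGGgaggcggccggg
LAMB2, chr3:49133140-49133169, minus strand: ggcgaaggcagtTTCCGGagggaaggggta
ITGA6, chr2:172427416-172427445, plus strand: ccacgtcgtggcTTCCGGgcaggtaccggg
TLN1, chr9:35732420-35732445, minus strand: ggcgggggTTCCGGggctccggctcc
ITGB1, chr10:32958386-32958415, minus strand: agaggaatgcgtTTCCGGagggagagggcg
ILK, chr11:6603586-6603615, plus strand: gccagaaccgacCCGGAAaccaaagcgtga
ITGB5, chr3:124901444-124901473, minus strand: agaaaactcaacTTCCGGcggggcggagct
SDC4, chr20:45348498-45348527, minus strand: tccactggggaaTTCCGGgcggggtgcggg

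The 8 genes with CCGGAA spanned the whole range of changes of the 38 measured genes, from *LAMA5* (−1.03) and *LAMB2* (−0.77) through *ITGA6*, *TLN1* and *ITGB1* near 0 to *ILK* (0.39), *ITGB5* (0.41) and *SDC4* (0.85). Of them 4 were lower and 4 higher, with a median of 0.041. Of 21 measured genes whose windows lack these letters 13 were lower and 8 higher, with a median of −0.23. Of all 12520 measured genes 6069 were lower and 6451 higher. A match says only that these letters are present. The deposited gene model of *LAMA5* ends 15323 bases short of the RefSeq start site used here. The deposited model of *LAMA3*, on the plus strand, begins at 23689443, upstream of the start site used here, 23873020. That of *ITGB1*, on the minus strand, begins at 33005792, upstream of 32958230. The levels are of whole genes and not of transcripts from these start sites alone. The AP-1-type sites of *LAMA3* stand 125 and 69 bases before the RefSeq start used here, in capitals in the lines below.

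LAMA3, chr18:23872883-23872912, plus strand: tctggcacaggcTGACTCAtgtgtgaagtt
LAMA3, chr18:23872939-23872968, plus strand: gccttcctcaccTGAGTCAggcaggcccgg

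The 4 genes listed under hemidesmosome lay on both sides of 0. Those of the plakins, which tie the structure to keratin, were lower in shESE1. *PLEC*, which encodes plectin, had 27.3 FPKM in shCtrl and 15.6 FPKM in shESE1, from 31187 and 19496 counts, a log2 change of −0.76 with a counting interval of −0.83 to −0.78 without the pseudocount. *DST*, the dystonin gene, of which 1 isoform is the hemidesmosomal plaque protein, was at 2.05 and 0.789 FPKM from 6610 and 2781 counts. That is 2.59-fold lower without a pseudocount (interval −1.44 to −1.31 in log2) and −0.77 with it. The values are summed over isoforms, so the hemidesmosomal isoform was not measured on its own. *COL17A1*, the transmembrane collagen of hemidesmosomes, had 23.1 FPKM in shCtrl and 28.3 FPKM in shESE1 (0.28), and *CD151*, a tetraspanin bound to laminin-binding integrins, at 44.8 and 50.1 (0.16). *COL17A1* was above 0 in each of the 9 settings, whereas *CD151* went to −0.025 with the trend of length and GC content removed. Both plakin genes were thus lower, and *COL17A1* and *CD151* higher, under the reported setting. The integrin subunits of the same structure, also membrane proteins, were not higher under that setting, with *ITGB4* at −0.49 and *ITGA6* at −0.032.

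Of the 13 focal adhesion and cell surface proteoglycan genes, 6 were lower and 7 higher, with a median of 0.038. Of all 12520 measured genes 6069 were lower and 6451 higher, with a median of 0.019. Of the linker genes, those of talin and kindlin-2 hardly differed, while that of vinculin was lower and that of kindlin-1, given below, higher. *TLN1*, the talin gene, was at 21.7 FPKM in each library, and *FERMT2*, encoding kindlin-2, at 4.47 and 4.42, and the counting intervals of both held 0. *PXN*, encoding the scaffold paxillin, was at 33.9 and 34.8 FPKM, and *TNS4*, a tensin without an actin-binding region, at 105.7 and 102. *VCL*, the vinculin gene, was at 19.95 and 16.2 FPKM (−0.28).

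Larger differences were found for the kinase FAK and the epithelial kindlin. *PTK2*, which encodes FAK, the main tyrosine kinase of focal adhesions, had 10.9 FPKM in shCtrl and 5.94 FPKM in shESE1. That came from 10081 and 6007 counts (−0.77, counting interval without pseudocount −0.92 to −0.83). *FERMT1*, which encodes kindlin-1, an activator of β1 integrins in epithelia, had 6.32 FPKM in shCtrl and 11.6 FPKM in shESE1. That came from 2063 and 4119 counts (0.78, interval without pseudocount 0.80 to 0.95). The ratio of *FERMT1* to *FERMT2* was 1.41 in shCtrl and 2.62 in shESE1. *ILK*, *PARVA* and *ZYX*, encoding the pseudokinase ILK, its partner α-parvin and the actin regulator zyxin, were at 20.3, 3.33 and 18.7 FPKM in shCtrl and at 27.0, 4.36 and 23.4 in shESE1. Their log2 changes were 0.39, 0.31 and 0.31, and the ratio of *PARVA* to *ILK* was 0.164 and 0.161. *LIMS1*, encoding PINCH, the other partner of ILK, came from the list of other focal adhesion genes, was named after its values were seen and lay the other way, at 5.39 FPKM in shCtrl and 2.76 in shESE1 (−0.77).

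Cell surface proteoglycans included the largest upward difference of the whole set on the reported scale. *SDC4*, the syndecan of focal adhesions, had 23.4 FPKM in shCtrl and 43.1 FPKM in shESE1. That came from 4113 and 8257 counts (0.85, interval without pseudocount 0.83 to 0.94). *SDC1*, the main epithelial syndecan, was at 41.8 and 70.9 FPKM from 10173 and 18808 counts (0.75). *CD44*, the hyaluronan receptor, had 29.5 FPKM in shCtrl and 18.6 FPKM in shESE1, from 19830 and 13639 counts (−0.64). *SDC1* and *SDC4* were above 0 and *CD44* below 0 in each of the 9 settings. A further measured syndecan gene, *SDC3*, came from the list of other proteoglycans, was named after its values were seen and lay the other way, at 3.17 FPKM in shCtrl and 1.54 in shESE1 (−0.71, 2.05-fold lower without a pseudocount). On the scale with the pseudocount, 0 of 15 measured genes in the list of other tetraspanins and proteoglycans were 2-fold lower and 0 higher. Of all measured genes 3.26% and 3.14% were, and the median of the list was 0.13. Without the pseudocount 2 genes of the list were lower and 1 higher, against 8.48% and 5.48% of all measured genes.

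Of 51 other focal adhesion genes 44 were measured, with a median of −0.09, beside 0.019 for all measured genes. On the scale with the pseudocount, 3 of the 44 were 2-fold lower and 3 higher, against 3.26% and 3.14% of all measured genes. *LASP1*, which encodes an actin-binding LIM and SH3 protein, had 9.64 FPKM in shCtrl and 48.0 FPKM in shESE1 (2.20), *CAV1*, the caveolin-1 gene, at 19.1 and 47.8 (1.275), and *PDLIM7*, a PDZ and LIM domain gene, at 10.7 and 22.8 (1.02). The lower genes were the adaptor *NCK2* (5.83 and 2.24 FPKM), *PTK2B*, which encodes the FAK relative PYK2 (5.40 and 2.04), and the tensin *TNS2* (1.83 and 0.409). *PTK2* and *PTK2B* were thus both lower. Of 25 genes of other integrin ligands only 8 were measured, with a median of 0.0088. At 2-fold with the pseudocount 0 were lower and 0 higher, against 3.26% and 3.14% of all measured genes. Without it 2 of the 8 were lower and 0 higher, against 8.48% and 5.48%.

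The deposited KEGG annotation gave a wider view. Of 192 genes in its focal adhesion term, 26 of them in the present list, 116 were measured, and the median was −0.020. Over all measured genes the median was 0.019. Of the 116, 7 were lower and 4 higher at 2-fold, against 3.26% and 3.14% of all measured genes. Past 2-fold in this term were *VEGFA* (−1.48), *ARHGAP5*, which encodes a GTPase-activating protein (−1.47), *EGFR* (−1.20) and the apoptosis inhibitor *BIRC2* (−1.19) among the lower, and *CAV1*, the beta-actin gene *ACTB* (1.11) and *HRAS* (1.05) among the higher. In ECM-receptor interaction, with 82 genes, 25 of them in the present list, 35 were measured, and the median was −0.24. At 2-fold 3 were lower and 1 higher, against 3.26% and 3.14% of all measured genes. The 3 lower were *COL4A5*, the thrombospondin gene *THBS3* (−1.03) and *LAMA5*. The terms share genes with each other and with the list, so their counts are not independent.

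Transcript length moved with these differences. The longest transcript of the 38 genes had a median of 5749 bases, against 3178 for the 12462 measured genes with a transcript in GENCODE release 29. Across the 38 genes Spearman's correlation between length and log2 change was −0.48, and across all 12462 it was −0.22. These are descriptions over genes of the same 2 libraries. Of 16 adhesion genes longer than 6000 bases, 13 were lower (median −0.26), as were 69.5% of all genes of that length (median −0.20). Of the 22 shorter ones, 10 were lower (median 0.046), against 44.6% of all shorter genes (median 0.067). *DST*, *PLEC*, *HSPG2* and *LAMA5*, all lower, have the longest transcripts of the set, whereas *SDC4* and *SDC1* are short. *LAMA3*, with 10661 bases, was higher all the same, as were *PARVA* (8719 bases, 0.31) and *COL4A1* (6616 bases, 0.092).

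**Figure D4:**
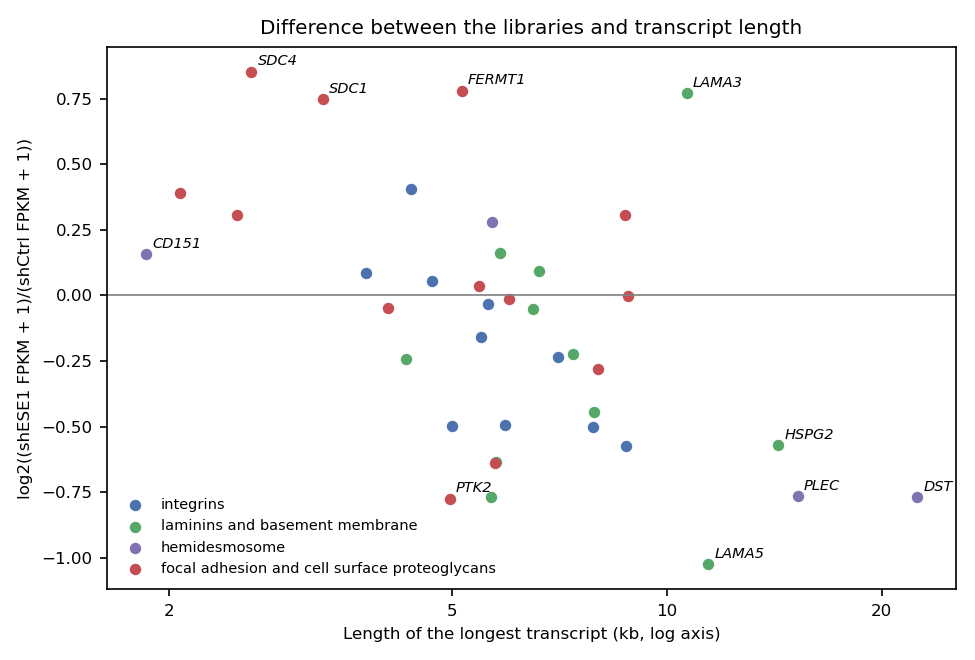
log2 change of the 38 measured adhesion genes against the length of the longest GENCODE 29 transcript in kb on a log axis, colored by group, 1 point per gene. The longest genes, *DST*, *PLEC* and *HSPG2*, lie below 0 with *LAMA5*. Of the genes longer than 6000 bases, *LAMA3*, *PARVA* and *COL4A1* have a higher level in shESE1.

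With a linear trend of length and GC content removed, *LAMA5* was at −1.15, *PLEC* at −0.87, *LAMB2* at −0.86, *PTK2* at −0.68, *DST* at −0.54, *LAMA3* at 0.84 and *SDC4* at 0.86. The median of the adhesion genes was then −0.089 and that of all genes 0.029. What part length has in the values of single genes was not tested.

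**Figure D5:**
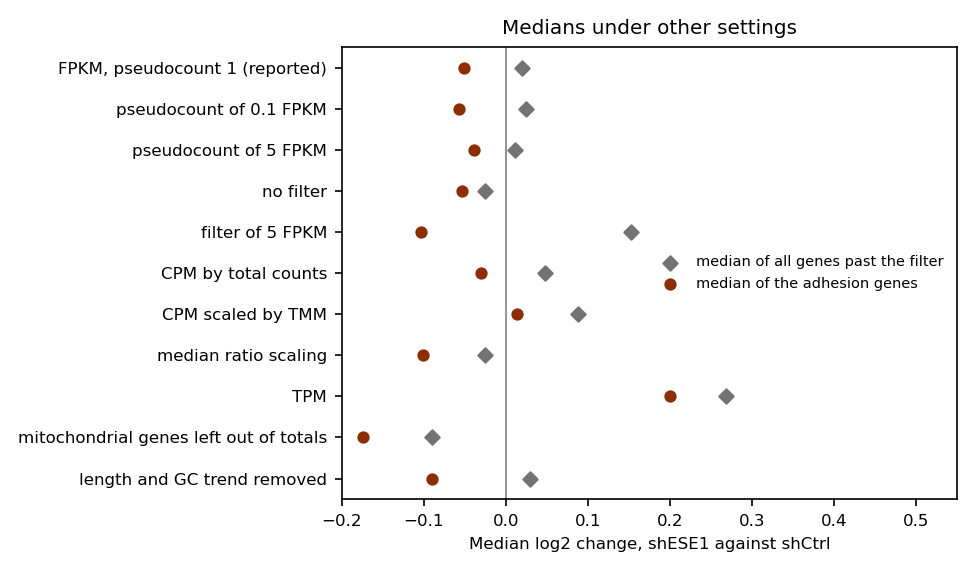
Median log2 change of the adhesion genes (circles) and of all genes past the filter (diamonds) under the reported setting and 10 others, 1 row per setting. The median of the adhesion genes lies to the left of that of all genes in every row shown, and both move to the right as TPM and to the left when mitochondrial genes are not in the totals.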

How the data were processed

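RNA-seq was deposited for 1 shCtrl and 1 shESE1 library of L3.6 cells, from strand-marked, paired-end libraries of poly(A) RNA. For every gene the authors deposited FPKM, in which 0.0001 stands for 0 (set back to 0 here where the count was 0). The authors also deposited raw whole-number counts per gene. Per the submitters' processing notes, StringTie, HISAT2 and fastp were used, with GRCh38 and mm10 as builds. For these and the counting step, roles and versions were not given in the sources used here. All positions are human, on GRCh38.

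The measure was the log2 ratio of FPKM with a pseudocount of 1, over genes reaching 1 FPKM in either library or both. Counting intervals are exact (Clopper-Pearson) 95% intervals of the 2 counts of a gene, placed on the FPKM ratio. The floor for a gene at 0 was 3 counts. Intervals and floors cover counting error only, and PCR reads without molecular identifiers are not independent molecules. With 1 library per group no test was run. Every one of the 41 genes was accounted for, and of the other lists the genes past 2-fold, at most the 4 largest per direction, were named, except 1 gene that is counted but not reported here. *LIMS1*, *SDC3*, *ITGA1* and *ITGAE* were named after their values were seen, and the promoter windows were chosen likewise. The genes and lists were chosen with earlier results of these data known. The KEGG terms come from the deposited annotation.

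Alternatives were other pseudocounts, filters, scalings (TMM with edgeR 4.0.16) and a 1.5-fold threshold. After seeing the data, 2 were added: a linear trend over length and GC content was removed, and genes sharing at least 20% of their 100-base words (taken every 10 bases of GENCODE release 29 transcripts) were dropped. The calculation was tested on simulated counts with known changes. These held counting error only and no spread between cultures, so the test covers the arithmetic alone. Python 3.11.15, numpy 2.4.6, scipy 1.17.1, pandas 2.3.3, matplotlib 3.10.9 and R 4.3.3 were used.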

Additional observations from a re-analysis of the deposited data

How the results depend on the processing

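Of the 38 measured adhesion genes, 15 were below 0 and 10 above 0 in all 9 settings compared for single genes, and 13 changed sign in at least 1. The number at least 2-fold lower, 1 as reported, was 2 with a pseudocount of 0.1, as CPM by total counts and as CPM scaled by TMM, where *DST* joined *LAMA5*. It was 0 with a pseudocount of 5 and as TPM, and 7 at 1.5-fold. Of all measured genes 408 were lower as reported, 958 with a pseudocount of 0.1, 706 as CPM and 650 with TMM. With a pseudocount of 5 it was 110 of all measured genes, as TPM 499 and at 1.5-fold 1444. The number at least 2-fold higher, 0 as reported, was 4 as TPM (*LAMA3*, *FERMT1*, *SDC1* and *SDC4*) and 4 at 1.5-fold. Of all measured genes 393 were higher as reported, 1147 as TPM and 1526 at 1.5-fold. The median of the adhesion genes, −0.051 as reported, was −0.10 with a filter of 5 FPKM and with median ratio scaling. It was 0.014 as CPM scaled by TMM, 0.20 as TPM and −0.17 when mitochondrial genes were not in the totals. The median of all genes past the filter was 0.019 as reported, 0.15 with the filter of 5 FPKM and −0.025 with median ratio scaling. It was 0.088 as CPM scaled by TMM, 0.27 as TPM and −0.09 when mitochondrial genes were not in the totals. The cause was not tested. Counts per gene were between 971 and 50194, so counting error was small beside the shifts between scalings. The median half-width of the counting intervals was 0.041 and the widest, that of *ITGB8*, was 0.11. No paired analysis was possible because each group has 1 library, and for the same reason no replicate could be left out. The trend correction and the removal of genes that share sequence, both chosen after seeing the data, left the counts at 1 and 0.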
